A study of Caenorhabditis elegans with 24 samples.

Results

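The 8 genes deps-1, pgl-1, pgl-3, glh-1, glh-2, glh-4, prg-1 and csr-1 encode core proteins of the germ granules and of the small RNA pathways that work in them. They were taken by name, through the probe sets annotated to each of them alone, and not by their values. All 8 were found, with 9 probe sets among the 22548 on the array, which together represented 17118 genes. The array is a short-oligonucleotide expression array with 1 labelled sample per array. The gene glh-1 had 2 probe sets and is described by the brighter one unless the other is named.

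Germ granules of Caenorhabditis elegans, also called P granules, are droplets of RNA and protein without a membrane that sit on the outside of germ cell nuclei and catch transcripts as they leave the nuclear pores. PGL proteins form their scaffold, GLH proteins are their Vasa-like RNA helicases, and Argonaute proteins carry small RNAs that recognise the transcripts passing through. Together they keep foreign sequences silent in the germ line and protect the transcripts that germ cells need for fertility.

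Whole young adults were collected 24 h after the vulval crescent stage of the last larva, from cultures grown at 25°C. The 3 strains were N2, the ancestral wild type, a deletion mutant of xpa-1 (strain RB864, outcrossed 3 times) and a point mutant of glp-1 (strain JK1107). The gene xpa-1 encodes a factor of nucleotide excision repair, and glp-1 encodes the Notch receptor that keeps germ line stem cells dividing, so that glp-1 mutants raised warm have little or no germ line. Animals of each strain were either untreated or given 50 J/m2 of UVC (emission peak 254 nm), and were frozen 3 h after exposure. Each of the 6 groups held 4 arrays, 2 from an experiment of 2007 and 2 from one of 2008, which makes 24 arrays in all. Arrays are named here by year and replicate number (2007-1). Nothing in the labels states that replicates came from separate cultures, and p-values therefore reflect the spread among these arrays alone, which may be technical.

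Intensities differed strongly between the years, and the year cannot be told apart from the amplification kit. RNA of 2007 was amplified from 500 pg and gave array medians of 4.24 to 8.42 deposited intensity units, while RNA of 2008 was amplified from 100 ng and gave medians of 68.9 to 190.5. Levels below are therefore log2(intensity + 32) after quantile normalization over all arrays, a scale whose floor is 5.00 and on which the change of a dim gene can be understated. On the arrays of 2007 the normalization can also widen small differences near background. For example, a deposited glh-4 intensity of 7.54 on the irradiated glp-1 array 2007-1 became 153. The xpa-1 probe set averaged 9.55 ± 0.41 (SD, n = 4) in N2 controls and 5.71 ± 0.59 in xpa-1 controls. It was also lower in glp-1 controls, at 6.84 ± 0.34. The glp-1 probe set averaged 10.53 ± 0.09 in N2 controls and 5.64 ± 0.85 in glp-1 controls, a level that does not bear on a point mutation itself. All 12 oocyte markers were lower in glp-1 than in N2 controls, with a median log2 difference of -6.20. Whole animals were measured, so fewer germ cells and less RNA per germ cell cannot be told apart in any strain difference below.

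Transcripts of all 8 genes were lower in glp-1 than in N2, with and without UV. Of the 8 genes 8 fell in controls, where limma called 18.0% of all probe sets lower and 37.7% in either direction. The median log2 difference of the 8 genes was -3.54, against 0.07 for all genes. The falls ran from -6.68 for deps-1 to -1.68 for csr-1. After UV 8 of 8 fell again, with a median of -3.03, where 19.5% of all probe sets were called lower and 39.9% in either direction.

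Of the granule assembly genes, deps-1 had the steepest fall on this scale. The floor of 5.00 leaves less room for a fall in genes dimmer in N2 controls, such as pgl-1 (mean 9.79, against 11.78 for deps-1). DEPS-1 is a P granule protein needed for the normal build-up of PGL-1 in the granules and of glh-1 transcripts. Its probe set (186952_at) read 11.57, 12.005, 11.73 and 11.82 on the N2 control arrays of 2007 and 2008. On the glp-1 control arrays it read 5.26, 5.00, 5.14 and 5.00. The glp-1 arrays lay at or just above the floor and did not overlap with N2. The log2 difference was -6.68 (SE 0.22, limma adjusted p = 2.79e-14, lower on 4 of 4 arrays), and 0.0621% of all probe sets had a lower value in that comparison.

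Both PGL genes fell as well. PGL-1, whose RGG repeats bind RNA, is the founding scaffold protein of P granules, and its probe set (187974_s_at) read 8.88, 8.94, 10.66 and 10.68 in N2 controls. In glp-1 controls it read 5.31, 5.83, 5.00 and 5.84, close to the floor in both years and below every N2 array. The fall was -4.30 (SE 0.66, limma adjusted p = 2.34e-05). PGL-3, a paralogue of PGL-1 that can assemble into droplets by itself, was measured by 187752_at at 9.88, 9.50, 10.13 and 10.51 in N2 controls and at 6.72, 6.93, 6.05 and 5.94 in glp-1 controls. These groups did not overlap either, and the fall was -3.60 (SE 0.41, limma adjusted p = 6.09e-07). None of the 4 glp-1 control arrays was at the floor for pgl-3.

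Transcripts of the 3 GLH helicase genes fell by similar amounts. GLH-1, a Vasa-like DEAD-box helicase of the granule, had the brightest probe set of the family (175430_s_at), at 12.16, 12.20, 11.08 and 11.16 in N2 controls. It read 9.58, 8.60, 7.54 and 8.55 in glp-1 controls, which is below N2 on every array and well above the floor. The fall was -3.08 (SE 0.24, limma adjusted p = 3.33e-09), and the second glh-1 probe set (190711_at) gave -3.99 (SE 0.57, limma adjusted p = 1.08e-05).

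GLH-2, its close paralogue, was read by 188994_at at 9.79, 10.07, 9.77 and 9.74 in N2 controls and at 5.74, 5.53, 5.90 and 6.84 in glp-1 controls. The fall was -3.84 (SE 0.34, limma adjusted p = 2.42e-08). GLH-4, a more distant member of the family, was read by 190000_s_at at 8.93, 9.57, 9.66 and 9.94 in N2 controls and at 5.00, 5.37, 6.38 and 7.43 in glp-1 controls. The fall was -3.48 (SE 0.34, limma adjusted p = 7.15e-08). Neither gene had overlapping groups. The array's name for a probe set ending in "_s_at" marks probes that can match more than one transcript, so the values of glh-1 (175430_s_at), glh-4, pgl-1 and prg-1 could include a near-identical relative.

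Both Argonaute genes among the 8 fell. PRG-1, the Piwi protein that binds piRNAs, was read by 177402_s_at at 9.69, 9.93, 11.79 and 11.59 in N2 controls and at 7.49, 6.68, 8.27 and 8.96 in glp-1 controls. The groups did not overlap, and the fall was -2.90 (SE 0.32, limma adjusted p = 3.84e-07). Its paralogue prg-2, which has a probe set of its own, fell by 5.72 (SE 0.39, limma adjusted p = 4.34e-10).

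CSR-1, the Argonaute that binds small RNAs against most germ line transcripts and is needed for chromosome segregation, was the exception in several respects. Its probe set (184755_at) read 9.24, 8.95, 9.76 and 9.53 in N2 controls and 6.86, 5.79, 8.84 and 9.28 in glp-1 controls. The glp-1 arrays were lower within each year, but the 2008 glp-1 arrays overlapped the 2007 N2 arrays. The fall was -1.68 (SE 0.45, limma adjusted p = 0.00517). On the 2008 arrays alone the difference was -0.58 (SE 0.21, limma adjusted p = 0.0546). Without a year term in the model it kept its size and lost the call (limma adjusted p = 0.102).

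In controls 7 of the 8 genes had 4 glp-1 arrays that did not overlap the 4 N2 arrays, a separation in either direction that 29.7% of all probe sets showed. For the same 7 genes all 8 glp-1 arrays, irradiated or not, lay below all 16 arrays of N2 and xpa-1, as for 9.21% of all probe sets. The exception was csr-1, whose highest glp-1 array (9.28) exceeded its lowest N2 or xpa-1 array (8.22), with 8 of those 16 arrays above all of glp-1. In order of their group means, the 4 groups of N2 and xpa-1 stood above both glp-1 groups for each of the 8 genes. Among those 4 groups the mean levels of neighbours differed by at most 0.25, which in each case is less than the SD of either group, as the plot of levels by group shows.

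**Figure D1:**
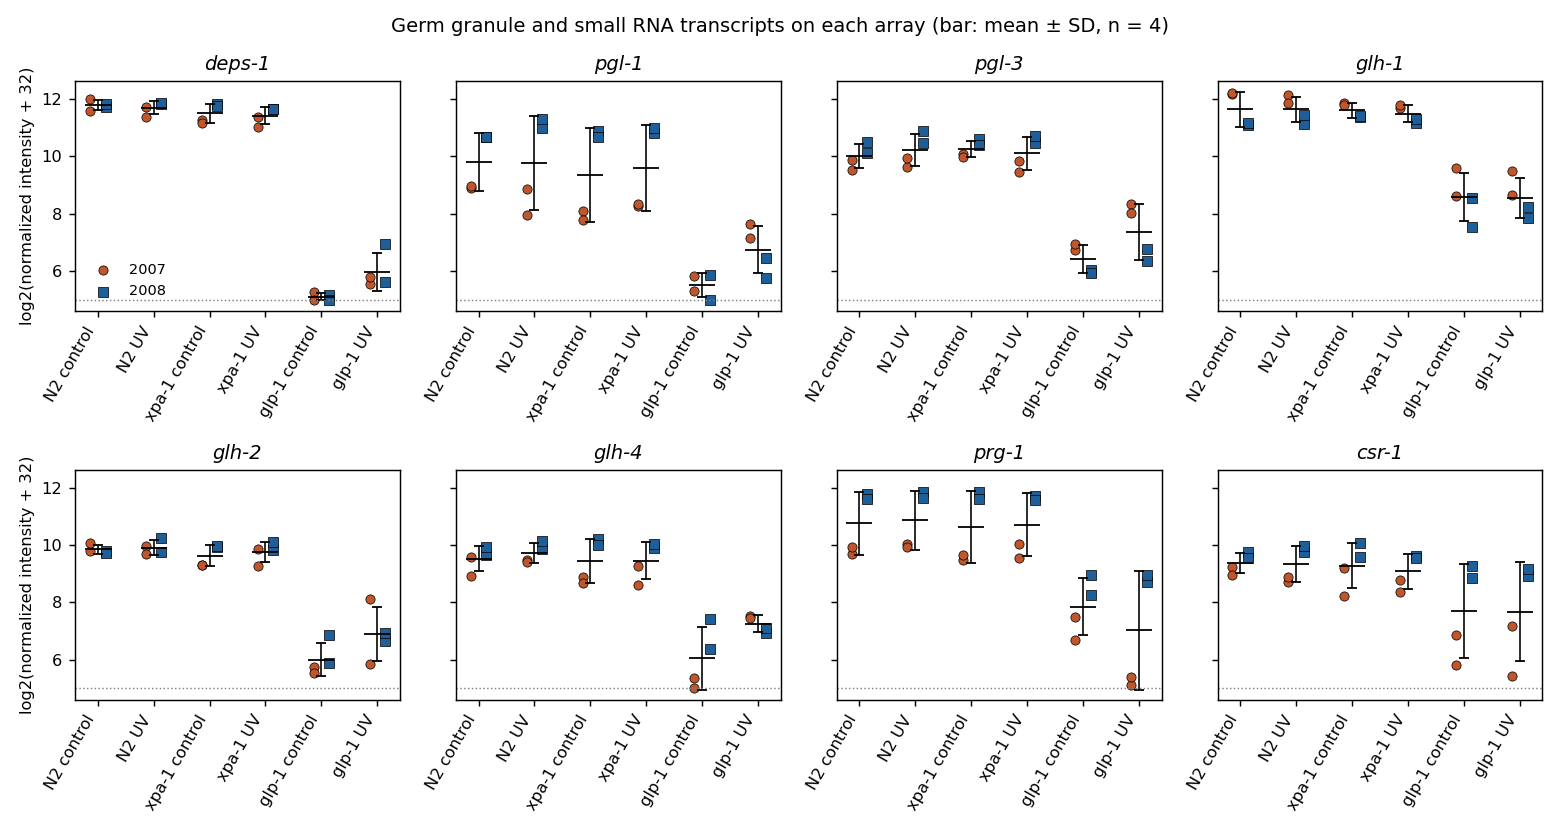
Levels of the 8 genes, as log2(normalized intensity + 32), on each of the 24 arrays by strain and treatment, with circles for 2007, squares for 2008, black bars for the mean ± SD of 4 arrays and a dotted line at the floor of 5.00. The glp-1 arrays lie below all others for every gene except csr-1, whose 2008 glp-1 arrays reach 9.28.

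After UV the strain difference was -5.74 for deps-1 (SE 0.22, limma adjusted p = 2.33e-13), -3.03 for pgl-1 (SE 0.66, limma adjusted p = 8.59e-04) and -2.85 for pgl-3 (SE 0.41, limma adjusted p = 1.05e-05). For the helicases it was -3.09 for glh-1 (-4.12 for its second probe set), -3.02 for glh-2 and -2.47 for glh-4, and for the Argonautes -3.83 for prg-1 and -1.66 for csr-1. In 7 of the 8 genes the irradiated glp-1 and N2 arrays did not overlap (28.8% of all probe sets), csr-1 again being the other. Both strain comparisons placed deps-1 first and csr-1 last, in an order that the floor of the scale can affect. With the arrays of 2007 alone, pgl-1 after UV was at -1.03 and no longer called (limma adjusted p = 0.0845).

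The genes csr-1, prg-1 and glh-1 had a deposited intensity of over 100 on all 4 glp-1 arrays of 2008, and each is compared here only with itself. The csr-1 probe set read 422.5, 646.6, 547.8 and 712.7 on the control and irradiated glp-1 arrays of 2008, and its N2 mean of that year was 3.27 times the glp-1 mean. The prg-1 probe set read 276, 505, 465 and 607, a ratio of 13.1, and glh-1 (175430_s_at) read 161, 370.04, 242 and 339.6, a ratio of 16.1. On the same 4 arrays deps-1 read 2.21, -17.7, 115 and 22.1, so that no fold is given for it. The pgl-1 probe set likewise had a value below 0 among its 4 (-8.84, 32.7, 71.7 and 28.6).

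Loss of xpa-1 was accompanied by no called change. Of the 8 genes 0 were called between xpa-1 and N2 controls, where 0.00887% of all probe sets were called, and 0 had an unadjusted limma p under 0.05. The differences ran from -0.44 for pgl-1 to 0.25 for pgl-3. For deps-1, read in xpa-1 controls at 11.27, 11.15, 11.82 and 11.74, the difference was -0.29 with a 95% interval of -0.75 to 0.18. The interval was widest for pgl-1, from -1.81 to 0.94, in a fit whose year term is shared by all strains. The glp-1 minus N2 difference of pgl-1 changed by -2.96 between the years, which such a term leaves in the spread. In this fit a sizeable pgl-1 change in either direction would not have been detectable. With a mean per strain, treatment and year, the pgl-1 year contrast in N2 and xpa-1 had an SE of 0.17. After UV 0 of 8 were called as well (0.0133% of all probe sets), with differences of -0.28 to -0.11 and an unadjusted p under 0.05 for 0.

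UVC left the 8 transcripts without a called change in both strains that have a germ line. In N2 limma called 0 of 8, as it called 0% of all probe sets, and 0 of 8 had an unadjusted p under 0.05, against 2.71% of all probe sets. The differences between UV and control ran from -0.09 for deps-1 to 0.22 for pgl-3. Irradiated N2 animals read 11.73, 11.37, 11.83 and 11.85 for deps-1, with 1 array below the range of the controls and the others inside it. In xpa-1, which lacks the repair of UV photoproducts, 0 of 8 were called (0.0310% of all probe sets), 0 had an unadjusted p under 0.05 (5.80% of all probe sets), and the differences ran from -0.20 for csr-1 to 0.25 for pgl-1.

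Averaging the UV effect over N2 and xpa-1 narrowed the intervals. Again 0 of 8 were called, where 0.146% of all probe sets were, and 0 had an unadjusted p under 0.05, against 6.09% of all probe sets. The 95% interval of that average was -0.41 to 0.24 for deps-1, -0.42 to 0.29 for glh-1 and -0.41 to 0.61 for glh-2. For the Argonautes it was -0.38 to 0.56 for prg-1 and -0.78 to 0.54 for csr-1. The widest was that of pgl-1, -0.86 to 1.08, in the same fit with a year term shared by all strains. The UV effect in xpa-1 minus that in N2 was also not called for any of the 8 genes (0% of all probe sets), and 0 had an unadjusted p under 0.05. These UV comparisons share arrays with the strain comparisons above.

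**Figure D2:**
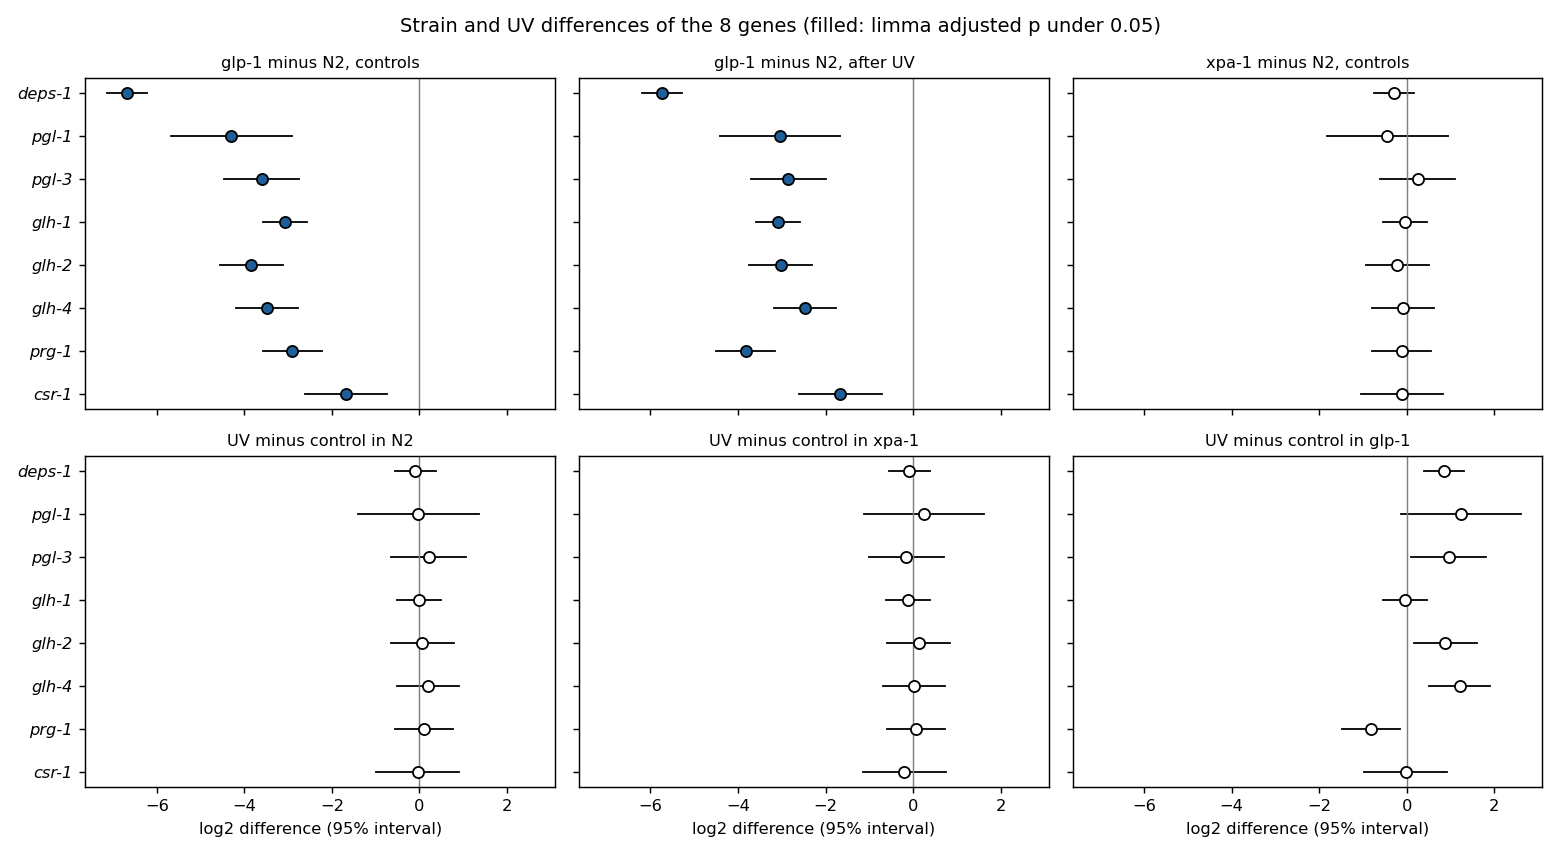
Log2 differences of the 8 genes (points) with 95% intervals in 6 comparisons, filled where the limma adjusted p was under 0.05. The glp-1 differences from N2 run from -6.68 to -1.66 and are all filled, while no difference from xpa-1 or UV is.

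In glp-1 animals the values after UV were mostly higher than without it, and none passed the threshold. Of the 8 genes 0 were called, as were 0% of all probe sets, and 5 had an unadjusted limma p under 0.05, against 7.26% of all probe sets. Among those 5, deps-1, pgl-3, glh-2 and glh-4 were higher after UV and prg-1 was lower. Irradiated glp-1 animals read 5.52, 5.78, 6.93 and 5.59 for deps-1, above all 4 of their controls, and 1.14% of all probe sets had groups separated like this in either direction. The deps-1 difference was 0.85 (SE 0.22, limma adjusted p = 0.387). Without the array 2008-1 of irradiated glp-1 it was 0.57 (limma adjusted p = 0.262).

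The other higher values were larger on the dim arrays of 2007. Irradiated glp-1 animals read 7.53, 7.45, 6.92 and 7.11 for glh-4, against controls of 5.00 to 7.43, a difference of 1.21 (SE 0.34, limma adjusted p = 0.435). Within 2007 the glh-4 difference was 2.31 (SE 0.32, limma adjusted p = 0.0351) and within 2008 it was 0.11 (SE 0.31). The deposited intensities behind the 2007 values were 7.54 and 6.69 after UV and -3.28 and 0.83 without it.

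For pgl-3 the difference was 0.96 (SE 0.41, limma adjusted p = 0.621), and for glh-2 it was 0.88 (SE 0.34, limma adjusted p = 0.594). Without the array 2007-1 of irradiated glp-1, these became 0.60 for pgl-3 and 0.40 for glh-2. The value for pgl-1 was the highest of the 8, at 1.24 (SE 0.66, limma adjusted p = 0.728), with irradiated glp-1 arrays at 7.13, 7.62, 6.45 and 5.74 that overlapped their controls. It was 1.81 within 2007 and 0.67 within 2008, and 0.68 without the irradiated array 2007-2. The lower prg-1, at -0.82 (SE 0.32, limma adjusted p = 0.594), was likewise -1.85 within 2007 and 0.21 within 2008. The deposited prg-1 intensities of 2007 were -1.56 and -0.05 after UV and 8.37 and 7.22 without it. Values for glh-1 and csr-1 were -0.03 each, and the second glh-1 probe set was at -0.25.

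Oocyte marker levels are given beside these values. The summed normalized intensity of the 12 oocyte markers was 375 to 1183 on the glp-1 control arrays and 727 to 3686 on the irradiated ones, with the highest sum on array 2008-1, which also had the highest deps-1. In N2 and xpa-1 that sum was 46503 to 80915. The median UV difference in glp-1 was 0.77 for the oocyte markers, 0.87 for the 8 genes and 0.00 for all genes. By year, the mean level of the oocyte markers was 5.82 in controls and 6.04 after UV in 2007, and 6.32 and 7.47 in 2008, whereas pgl-1, pgl-3, glh-2 and glh-4 differed more in 2007. None of the 12 oocyte markers was called, and their part in the result was not tested. The UV effect in glp-1 minus that in N2 was called for 0 of 8 genes and 0% of all probe sets. It had an unadjusted limma p under 0.05 for 2 of the 8, deps-1 at 0.94 (adjusted p = 0.995) and glh-4 at 1.01 (adjusted p = 0.995), against 4.14% of all probe sets.

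The 2 years gave different levels for most of the genes. In N2 and xpa-1 together, 6 of 8 were called as different between 2008 and 2007, where 43.2% of all probe sets were. In 2008 pgl-1 was higher by 2.48 (SE 0.17, limma adjusted p = 8e-08), prg-1 by 1.92 (SE 0.14, limma adjusted p = 1.2e-07), csr-1 by 0.93, glh-4 by 0.86 and pgl-3 by 0.72. The lower one was glh-1, at -0.68 (SE 0.18, limma adjusted p = 0.00642), but its second probe set was not called (-0.37, SE 0.42, limma adjusted p = 0.497), nor was the mean of its probe sets (-0.52, limma adjusted p = 0.164). Values for deps-1 (0.33) and glh-2 (0.26) were not called, but without either irradiated glp-1 array of 2008 deps-1 was (limma adjusted p = 0.0194).

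Germ line markers also differed between the years. In the same comparison 22 of 25 measured sperm genes were lower in 2008 (median -3.23) and 6 of 12 oocyte markers were higher (median 0.48), while of all 17118 genes 3024 were higher and 4198 lower (median -0.15). The summed normalized sperm signal in N2 and xpa-1 ranged from 7099 to 33746 in 2007 and from 397 to 1257 in 2008. Their part in the year differences of the 8 genes was not tested. The sign for glh-1 and deps-1 depended on the scaling. On the values as deposited, without scaling between years, glh-1 was 2.57 higher in 2008. In that fit the median of all probe sets was 2.06, and 99.5% of the called ones were higher in 2008. After scaling to the 75th percentile deps-1 was 0.91 lower in 2008, with a median of all probe sets of -0.15.

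The strain difference itself was not of equal size in the 2 years. It was called as different for 3 of 8 genes, against 6.19% of all probe sets, namely pgl-1 and pgl-3, whose fall in glp-1 was steeper in 2008, and csr-1, whose fall was steeper in 2007 under the reported scaling. The count was 6 on the values as deposited, 7 after median centring and 6 with quantile normalization within each year. These settings also called more of all 22548 probe sets, with 6625, 13467 and 8590 calls in that order, against 1396 in the reported fit. The 2008 minus 2007 contrast of the strain difference was -2.96 for pgl-1 (SE 0.34, limma adjusted p = 2.42e-04), -1.99 for pgl-3 (SE 0.23, limma adjusted p = 2.75e-04) and 1.93 for csr-1 (SE 0.48, limma adjusted p = 0.0289). Within each year alone, the glp-1 minus N2 difference in controls was -3.34 and -5.25 for pgl-1 in 2007 and 2008, -2.87 and -4.33 for pgl-3, and -2.77 and -0.58 for csr-1. On the values as deposited, with a constant added before log2, the csr-1 contrast turned to -0.37 (limma adjusted p = 0.467). Without the constant, the deposited N2 to glp-1 ratio of csr-1 was 13.9 in 2007 and 3.27 in 2008, control and irradiated arrays together. That ratio was larger in 2007, as was the fall in the reported fit. The part of the constant in the turn was not tested. The csr-1 contrast was also not called after median centring (0.25) or with quantile normalization within each year (0.22). Nor was it called after scaling to the 75th percentile (1.19) or with log2(value + 1) (2.74). The csr-1 call was also lost when any of 9 arrays was left out, the N2 control arrays 2007-1, 2008-1 and 2008-2, the irradiated N2 arrays 2007-2, 2008-1 and 2008-2, the glp-1 control array 2008-2 and the irradiated glp-1 arrays of 2008 (limma adjusted p from 0.0537 to 0.0707). Without the glp-1 control array 2007-1, prg-1 joined the called genes at 0.94 (limma adjusted p = 0.0413). Under the reported scaling the fall of deps-1 in controls was -6.66 in 2007 and -6.71 in 2008, with glp-1 at or near the floor in both years. Its year contrast of 0.13 was not called, but it was called at -2.38 on deposited values, -1.76 after median centring, -2.59 with quantile normalization within each year and, in the other direction, 1.22 after scaling to the 75th percentile. For glh-1 the falls were -3.09 and -3.07, with a contrast of -0.16 that was not called, and of 1.40 (SE 0.84, limma adjusted p = 0.393) for the second probe set. The glh-1 contrast was called at 0.92 after median centring and at 1.23 after scaling to the 75th percentile.

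**Figure D3:**
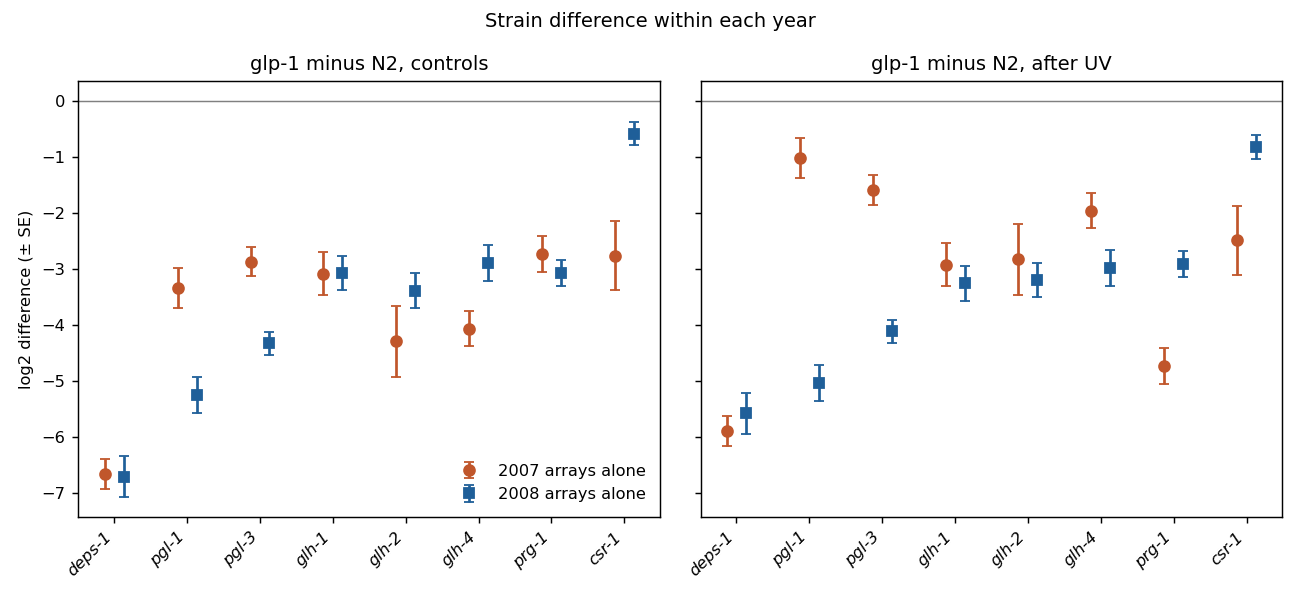
Log2 difference between glp-1 and N2 (± SE) fitted to the arrays of 2007 alone (circles) and of 2008 alone (squares), in controls and after UV. In controls pgl-1 goes from -3.34 to -5.25 and csr-1 from -2.77 to -0.58, under the reported scaling. On deposited values, with a constant added before log2, the csr-1 contrast between the years turns to -0.37 and that of deps-1 is -2.38. Without the constant, the deposited N2 to glp-1 ratio of csr-1 is 13.9 in 2007 and 3.27 in 2008.

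Related genes from 11 lists were set beside the 8 in the comparison of glp-1 with N2 controls. Of 25 measured genes of germ granule proteins other than the 8, 23 fell and 0 rose, with a median of -3.79. They included mip-1, a LOTUS-domain partner of P granule proteins (-4.90, limma adjusted p = 6.16e-11), egc-1 (-4.26, limma adjusted p = 9.26e-11) and cpb-3, a cytoplasmic polyadenylation element binding homologue (-6.76, limma adjusted p = 1.69e-10). The list also holds pgl-2 and glh-3, paralogues of the genes described here, with differences of -2.15 and -3.79, glh-3 being at the floor on all 4 glp-1 control arrays. The helicase gene rde-12, at -0.41, was not called, and elli-1 was at the floor on every N2 and glp-1 control array, where no difference could be seen.

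Genes of germ line Argonautes and of secondary small interfering RNA synthesis fell for 24 of 27 measured, with a median of -2.02. The Argonaute gene wago-1 stood at -6.56 (limma adjusted p = 2.37e-13), ego-1, a germ line RNA-dependent RNA polymerase, at -3.68 (limma adjusted p = 2.86e-12) and simr-1, a Tudor-domain protein gene, at -4.24 (limma adjusted p = 3.4e-11). One member rose, the Argonaute gene vsra-1, by 1.08 (limma adjusted p = 4.49e-05), and wago-10 (0.61) and wago-11 (-0.75) were not called. Of 13 measured genes of piRNA production 11 fell, with a median of -2.54, those with the smallest p being pid-3 (-4.55), tost-1 (-4.51) and pid-1 (-3.85). Of these, pid-3 and pid-1 encode parts of a complex that processes piRNA precursors. The forkhead factor gene unc-130 rose by 1.07 (limma adjusted p = 0.0367) and tofu-4 (-1.04) was not called.

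Genes of the microRNA pathway and of RNA interference in the soma were more divided. Of 31 measured 18 fell, 4 rose and 9 were not called, with a median of -0.86. Falls with the smallest p were those of rde-4 (-2.39), a double-stranded RNA binding partner of Dicer, vig-1 (-1.47) and drsh-1 (-2.12), the Drosha nuclease. The risers with the smallest p were sago-1, an Argonaute gene (1.57, limma adjusted p = 1.24e-07), sid-2, whose product takes up double-stranded RNA from the gut lumen (3.48, limma adjusted p = 1.39e-06), and sid-5 (1.11, limma adjusted p = 0.00184), while sid-3 rose by 1.29. The microRNA Argonaute gene alg-1 (0.04) and its partners ain-1 (0.03) and ain-2 (-0.04) were not called. Of 14 measured chromatin genes of small RNA silencing 11 fell, with a median of -2.10, among them set-32 (-3.003), mes-2 (-2.77) and mes-4 (-4.04), all coding for histone methyltransferases.

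Of all 17118 genes 3612 rose and 3185 fell in this comparison. Of the somatic gonad markers 4 of 6 rose, of the intestine markers 3 of 6, of the neuron markers 4 of 6 and of the body wall muscle markers 1 of 6, and 0 of these fell. Of 25 sperm genes 1 fell, msp-65 at -2.06 (limma adjusted p = 0.0265), and the median was -0.52. That median pools years with opposite differences. The mean sperm level in controls was 8.35 in N2 and 6.72 in glp-1 in 2007, but 5.89 and 6.56 in 2008. The share of body in the RNA of glp-1 animals was not measured.

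**Figure D4:**
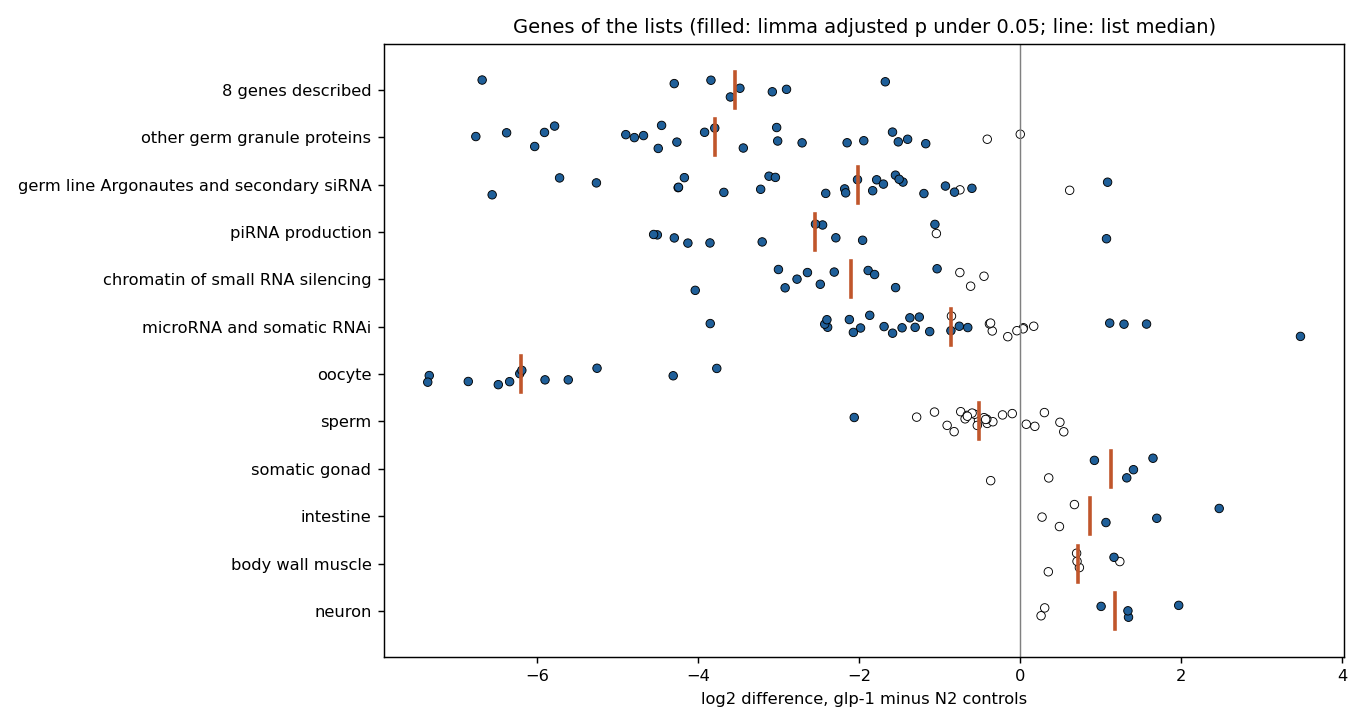
Log2 difference between glp-1 and N2 controls for each gene of the 8 described and of 11 lists, filled where the limma adjusted p was under 0.05, with a line at each list's median. The 8 genes (median -3.54) lie left of 0, as do the other germ granule genes (-3.79) except elli-1 at 0, which was at the floor in both groups, and the microRNA and somatic genes (-0.86) lie on both sides of it.

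Across the 24 arrays the levels of the 8 genes moved together, once the mean of each year was subtracted. Pearson's r between pairs of them ran from 0.51 to 0.97, with a median of 0.90 over 28 pairs, a description in which every pair shares the same arrays and the difference between glp-1 and the other strains. Within groups of one strain, treatment and year, over the 16 arrays of N2 and xpa-1, r ran from -0.24 to 0.84 with a median of 0.34. Each such group holds only 2 arrays, whose deviations from their mean are equal and opposite. These r therefore rest on fewer independent values than arrays and are imprecise. Closest to the mean of the 8 genes over 24 arrays were C16A11.4 (r = 0.994), F56C9.6 (0.993), ZC434.8 (0.993), fbxc-50 (0.993) and nop-1 (0.992). Closest to a single gene were T05F1.2 for deps-1 (r = 0.997), cdt-2 for pgl-1 (0.983), mans-4 for pgl-3 (0.983), W03C9.2 for glh-1 (0.991), citk-2 for glh-2 (0.989), gex-5 for glh-4 (0.976), dnsn-1 for prg-1 (0.992) and dnj-22 for csr-1 (0.942).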

How the data were processed

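RNA was measured in whole animals on single-channel Affymetrix arrays. The authors deposited linear intensity values, of which 18.6% lie below 0; how they were summarised, background-corrected and scaled was not given in the sources used here. Per the labels, RNA was amplified from 500 pg (2007) or 100 ng (2008) with different kits. Groups, years and replicate numbers were read from the titles.

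Values were quantile normalized over all 24 arrays, set to at least 0 and transformed to log2(value + 32). Values at or below 0 after normalization were 15.5%. A mean per group plus a year term was fitted with limma 3.58.1 in R 4.3.3 (17 residual degrees of freedom). P-values are two-sided. The Benjamini-Hochberg adjustment covered all 22548 probe sets, and calls were made under 0.05. Year contrasts came from a model with a mean per strain, treatment and year. Each gene was read from the brightest probe set naming it alone (20766 probe sets named 1 gene, 887 several, 895 none), through the supplied annotation, in which 0 symbols needed an update.

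All 8 genes were reported, by the brightest probe set, with the second glh-1 probe set beside the strain and year comparisons and UV in glp-1. From each list, up to 3 called genes of smallest p in each direction, and those not called or moving against the majority, could be named; pgl-2, glh-3 and prg-2 were named as paralogues after their values were seen. The genes, lists and tests were chosen with earlier results of these data known. A small heat shock gene put among the germ granule proteins in error was removed after its value was known.

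Equal replicate numbers deviated together within both years (correlation over genes above 0.1) for xpa-1 against N2 after UV (0.19 and 0.31) and for UV in glp-1 (0.11 and 0.40), and in no other group comparison. No label says what the numbers share. Alternatives were other scalings, pseudocounts, filters, variance models, array weights, year terms, each year alone, a replicate block, compared groups alone, the mean over a gene's probe sets and each array left out; 2 for 2008 alone were added after seeing the data. In simulated data for glp-1 against N2 controls, with 22548 probe sets, limma called 26% of 50 changes of 1 (log2), 66% of 1.5, 82% of 2 and 96% of 3, and 5 unchanged ones. Far fewer probe sets were changed there than the 8511 called in the real comparison. The Benjamini-Hochberg threshold depends on that share, so these rates do not carry over to it. The number of arrays limits the precision.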

Additional observations from a re-analysis of the deposited data

Results flagged for a closer look

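Among the 48 groups of 4 arrays examined for the 8 genes, 1 held an array far from the other 3. On the N2 control array 2007-2, glh-2 read 10.07 and the other 3 arrays 9.74 to 9.79. Chance singles out about 1 in 20 such groups.

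The difference between glp-1 and N2 was not the same in 2007 and 2008 for 3 genes, by limma's test of the difference itself. The contrast (2008 minus 2007) was -2.96 for pgl-1, -1.99 for pgl-3 and 1.93 for csr-1. On the values as deposited, with a constant added before log2, csr-1 turned to -0.37. Without the constant, its deposited N2 to glp-1 ratio was 13.9 in 2007 and 3.27 in 2008. The csr-1 call was lost when any of 9 arrays was left out. The year and the amplification kit cannot be told apart.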

How the results depend on the processing

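The fall in glp-1 kept its direction for all 8 genes under every alternative run, with 8 of 8 called in each fit that left out 1 array and 7 or 8 elsewhere. The call was lost for csr-1 in controls with no year term (adjusted p = 0.102), on 2008 arrays alone (0.0546) and with quantile normalization over 2008 alone (0.0546), for csr-1 after UV with no year term (0.103) and for pgl-1 after UV on 2007 arrays alone (0.0845). On the values as deposited 27.7% of all called probe sets in the control comparison were higher in glp-1, against 52.3% in the reported fit, and after UV 18.9% against 50.9%. The median of all probe sets in the control comparison was 0.31 after median centring and 0.06 as reported, and the 8 genes fell under both. For UV in glp-1, 1 gene in place of 0 was called with log2(value + 1) (deps-1, 3.53, adjusted p = 0.0363), with array weights (deps-1, 1.17, adjusted p = 0.0408) and on 2007 arrays alone (glh-4). With the replicate block 8 of 8 were called in both strain comparisons and 0 in each UV and xpa-1 comparison, as without it. It took 1 call from the year difference, csr-1 (0.80, adjusted p = 0.0725), which left 5 of 6. No other call changed under the block.

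The year contrasts depended on the scaling. The count of genes whose strain difference varied with the year was 3 as reported, 6 on deposited values, 7 after median centring and 6 after quantile normalization within each year, and 2 to 4 with 1 array left out. Calls among all 22548 probe sets were 1396 as reported, 6625 on deposited values, 13467 after median centring and 8590 within years. Directions were reversed as follows. For 2008 minus 2007, glh-1 was 2.57 on deposited values, 0.42 after median centring and 2.64 within years, and deps-1 was -0.91 after scaling to the 75th percentile. For the strain difference by year on deposited values, deps-1 was -2.38, glh-2 -1.96, glh-4 -2.14, prg-1 -1.35 and csr-1 -0.37. After median centring deps-1 was -1.76, glh-1 0.92, glh-2 -1.34, glh-4 -1.52 and prg-1 -0.73. Within years deps-1 was -2.59, glh-2 -1.79, glh-4 -1.85 and prg-1 -1.15, and after scaling to the 75th percentile glh-1 was 1.23. On deposited values the 32 added before log2 exceeded every array median of 2007 (4.24 to 8.42). Without it, the deposited N2 to glp-1 ratio in 2007 and 2008 was 43.7 and 13.1 for prg-1 and 36.5 and 24.7 for glh-2. It was 31.7 and 18.2 for glh-4, 13.9 and 3.27 for csr-1 and 40.8 and 16.1 for glh-1. The ratio was larger in 2008 for pgl-1 (10.6 and 123) and pgl-3 (14.8 and 51.2). The glp-1 means behind the 2008 ratio of pgl-1 and the 2007 ratios of prg-1 and glh-4 include values below 0. Those of 2007 were 3.50 for prg-1, 2.94 for glh-4 and 4.04 for csr-1, so that ratios with such divisors are rough. The cause of the reversals was not tested. For pgl-1 and pgl-3 the direction held under each alternative run, and pgl-1 missed the threshold with log2(value + 1) (adjusted p = 0.0523). Signals near background limit deps-1, pgl-1 and glh-4 in glp-1, where 2, 1 and 1 of 8 arrays were at the floor. They also limit prg-1, which was below 0 as deposited on 2 of these arrays. Levels under 6 were read on 7 of the 8 glp-1 arrays for deps-1, 5 for pgl-1, 4 for glh-2, 2 each for glh-4, csr-1 and prg-1 and 1 for pgl-3. The second glh-1 probe set was at the floor on 2.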
